A study of Homo sapiens with 32 samples.

Results

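The 53 genes described here are the ligands, receptors, inhibitors, intracellular components and direct targets of the Wnt pathway, listed by symbol and looked up among the 48804 Ensembl genes of a count table from MDA-MB-468 cells. Each of the 53 symbols matched 1 identifier, and the rule for the list used no measured value, though the list was drawn up with earlier results of these data known. They comprised 12 Wnt ligands, 9 Frizzled receptors, 5 co-receptors or other receptors, 3 Dishevelled proteins, 4 members of the destruction complex, beta-catenin, 4 TCF/LEF factors, 3 secreted and 2 intracellular inhibitors, 2 receptor ubiquitin ligases, 2 ligand-processing enzymes, 3 R-spondin receptors and 3 other targets.

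The study treated MDA-MB-468, an established human triple-negative breast cancer cell line, with salinomycin (Sal), a polyether ionophore, with dasatinib (Das), an inhibitor of Src-family and other tyrosine kinases, or with the drugs together (S + D), and sequenced RNA from whole cultures. Control cells received PBS, and the labelled doses were 0.5 µM Sal, 15 µM Das and, for S + D, a total of 15.5 µM. Cells were harvested after 24 or 72 h, which gave 8 groups of 4 libraries, described by the study as biological replicates, and 32 libraries in all. All groups were the same cell line in the same serum-containing medium, and treated libraries were set against the PBS libraries harvested at the same time. The 3 comparisons of a time point therefore shared their 4 control libraries.

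Wnt proteins are secreted lipid-modified ligands that bind Frizzled receptors together with the co-receptors LRP5 and LRP6. Receptor engagement recruits Dishevelled and disables the destruction complex of AXIN, APC and GSK3B, so that beta-catenin escapes degradation, enters the nucleus and activates genes through TCF/LEF factors, among them negative feedback genes such as AXIN2 and NKD1. Some ligands, WNT5A and WNT11 among them, also act without beta-catenin, partly through ROR and RYK receptors, and in the mammary gland the pathway is known for its part in maintaining stem and progenitor cells.

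Libraries held between 25692561 and 42769687 counts, and the 4 of a condition correlated at 0.9754 or higher across genes. In every condition 1 library carried no replicate number in its label; these unnumbered libraries deviated together from their condition means, with correlations across genes between 0.61 and 0.75 within a time point, so results are also given from the 3 numbered libraries of each condition. Values are CPM, which relate a gene's counts to the TMM-scaled size of the library. Libraries are listed below as replicates 1, 2 and 3 and then the unnumbered one. The epithelial markers of the line were present in the 72 h control, with KRT8 at a mean of 1050 CPM, KRT18 at 791, EPCAM at 351, KRT5 at 531 and EGFR at 5640, and PGR had no count. ESR1 was at a mean of 7.3 CPM and ERBB2 at 125 in the same control. The keratins moved with treatment, and not all in the same direction. With Sal at 72 h KRT5 went to 44 CPM, KRT8 to 318, KRT18 to 589 and KRT14 from 17.8 to 0.405. KRT17 was at 38.9 CPM in the 72 h control, 51.2 with Sal and 144 with S + D. Of the markers of other cell types, PTPRC, CD3E, CD68, COL1A2, DCN and VWF stayed at or under 0.209 CPM in every group, and COL1A1 was at 28 CPM in the 72 h control and 87 CPM with S + D. The part of these marker changes in the results below was not tested.

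Of the 53 genes, 43 passed the low-count filter at 24 h and 45 at 72 h. Below it at both times were the ligand WNT7A, the factor LEF1, the inhibitors DKK3 and NKD2, the Wnt deacylase NOTUM, the R-spondin receptor LGR5 and the targets SP5 and TNFRSF19, with at most 7 counts in any library. LGR5 had 1 count in 1 of the 32 libraries and none in the others, and NKD2 had at most 1. FZD8 (1 to 21 counts per library) and ROR2 (0 to 22) passed at 72 h only, through the treated groups in which they were high. At 24 h WNT11 passed only through the S + D group, in which it was highest, and was called in no comparison with control. Without it 42 members were tested at 24 h, with the same numbers called. WNT7A had 4, 4, 2 and 4 counts with S + D at 72 h against 0, 0, 1 and 0 in the 72 h control. No test is given for the genes below the filter, because a comparison could be tested only where a library held more than 3 counts.

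Per kilobase of exon, the highest of the 53 in the 72 h control were the ligand WNT6 at 66.2 CPM per kilobase, the secreted antagonist SFRP1 at 64.8, beta-catenin (CTNNB1) at 44.8 and LRP5 at 36.8. LGR4, FZD6, DVL3 and TCF7L1 followed between 22.6 and 30.5 CPM per kilobase. The other ligands above 1 CPM per kilobase were WNT7B at 18.2, WNT10A at 9.33, WNT4 at 3.34, WNT5A at 2.73, WNT3A at 1.27 and WNT9A at 1.08. Control libraries thus held RNA of several ligands, of Frizzled and LRP receptors and of 3 TCF factors, with TCF7L1 at 22.6, TCF7L2 at 5.98 and TCF7 at 3.55 CPM per kilobase. The length is that of all annotated exons of a gene merged, 4431 bases for TCF7L1 and 10093 for TCF7, and not of a transcript. The order of genes therefore depends partly on the annotation.

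Most of the Wnt genes that changed fell, and the falls were widest with Sal and with S + D at 72 h. A gene is called changed at an adjusted p under 0.01 in edgeR's quasi-likelihood test (Benjamini-Hochberg over all genes tested), and fold changes are on the log2 scale, treated over control. At 24 h, Sal lowered 6 of the 43 tested members and raised 0, where 2.23% of all genes tested were called lower and 4.55% higher. Das lowered 8 and raised 1 (6.88% and 6.99% of all genes), and S + D lowered 21 and raised 0 (16.5% and 17.1%). At 72 h, Sal lowered 29 of 45 and raised 2, against 26.8% of all genes lower and 26.3% higher. Das lowered 10 and raised 0 (9.36% and 10.5%), and S + D lowered 31 and raised 6 (27.9% and 27%). The 6 include FZD8 and ROR2, which reached the test through treated libraries, and without them 4 of 43 were higher. At 24 h the share of members lower was 14% for Sal, 18.6% for Das and 48.8% for S + D, and at 72 h it was 64.4%, 22.2% and 68.9%. It was above the share of all genes in each of the 6 comparisons, while the share higher was below it in each. In RNA from whole cultures, fewer cells that express a gene and less of its RNA per cell cannot be told apart.

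**Figure D1:**
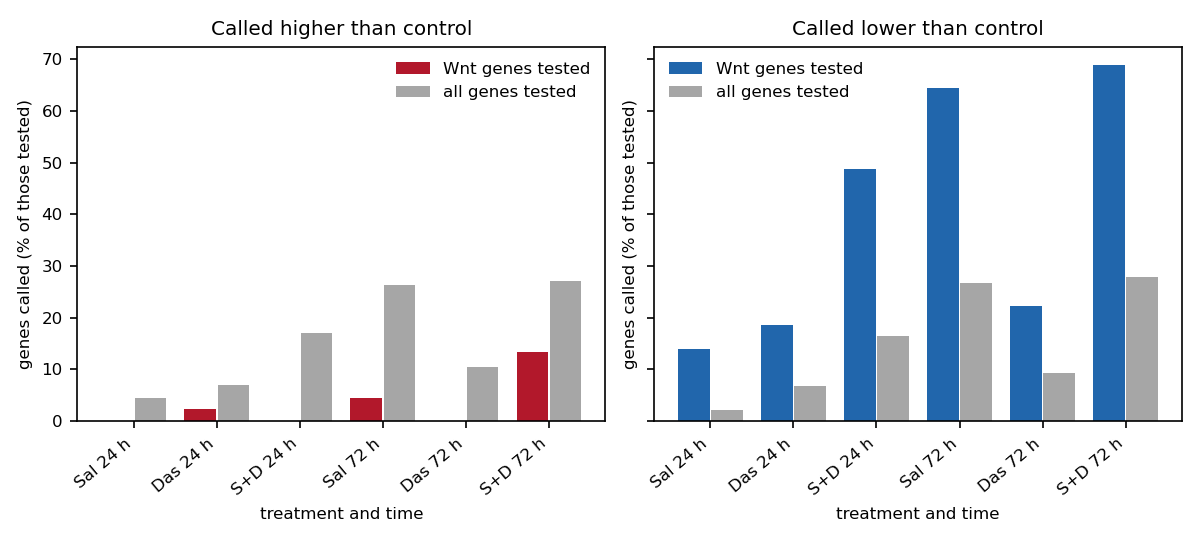
Share of genes called higher (left) and lower (right) than the control of the same time, in percent of the genes tested, for the Wnt genes (coloured bars) and for all genes (grey bars) in the 6 comparisons. At 72 h the share of Wnt genes called lower was 64.4% with Sal and 68.9% with S + D, against 26.8% and 27.9% of all genes.

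The members' median log2 fold change at 24 h was -0.38 for Sal, -0.14 for Das and -0.48 for S + D. At 72 h it was -1.10, -0.40 and -0.97, while the median of all genes tested lay between -0.02 and 0.04. From the numbered libraries alone, the members lower and higher at 24 h were 18 and 1 for Sal, 15 and 5 for Das and 29 and 4 for S + D. At 72 h they were 32 and 2, 13 and 1, and 31 and 6. In these fits the share of members lower stayed above that of all genes, at 41.9% against 10.9%, 34.9% against 18.7% and 67.4% against 29.4% at 24 h. At 72 h it was 71.1% against 29.6%, 28.9% against 11.5% and 68.9% against 29.5%. The share higher was 2.33%, 11.6% and 9.3% at 24 h against 12.7%, 20.6% and 28.7% of all genes. At 72 h it was 4.44%, 2.22% and 13.3% against 27.8%, 11.2% and 28.4%. The early counts thus depended on how the unnumbered libraries were handled. Those of Sal and Das at 24 h rose from 6 to 19 and from 9 to 20 without these libraries. With all libraries and a term for the unnumbered ones they were 22 and 18, and no call of a member changed direction. The members called with Sal at 24 h were WNT3, WNT7B, WNT10A, FZD1, FZD7 and CTNNB1. Of these, WNT7B (-0.53, standard error 0.09, adjusted p = 0.00132) was called in all 8 refits that left out 1 library. FZD1, FZD7 and WNT3 were called in 1 of the 8, without Sal replicate 1, CTNNB1 only without control replicate 1, and WNT10A only without control replicate 1 or the unnumbered Sal library.

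**Figure D2:**
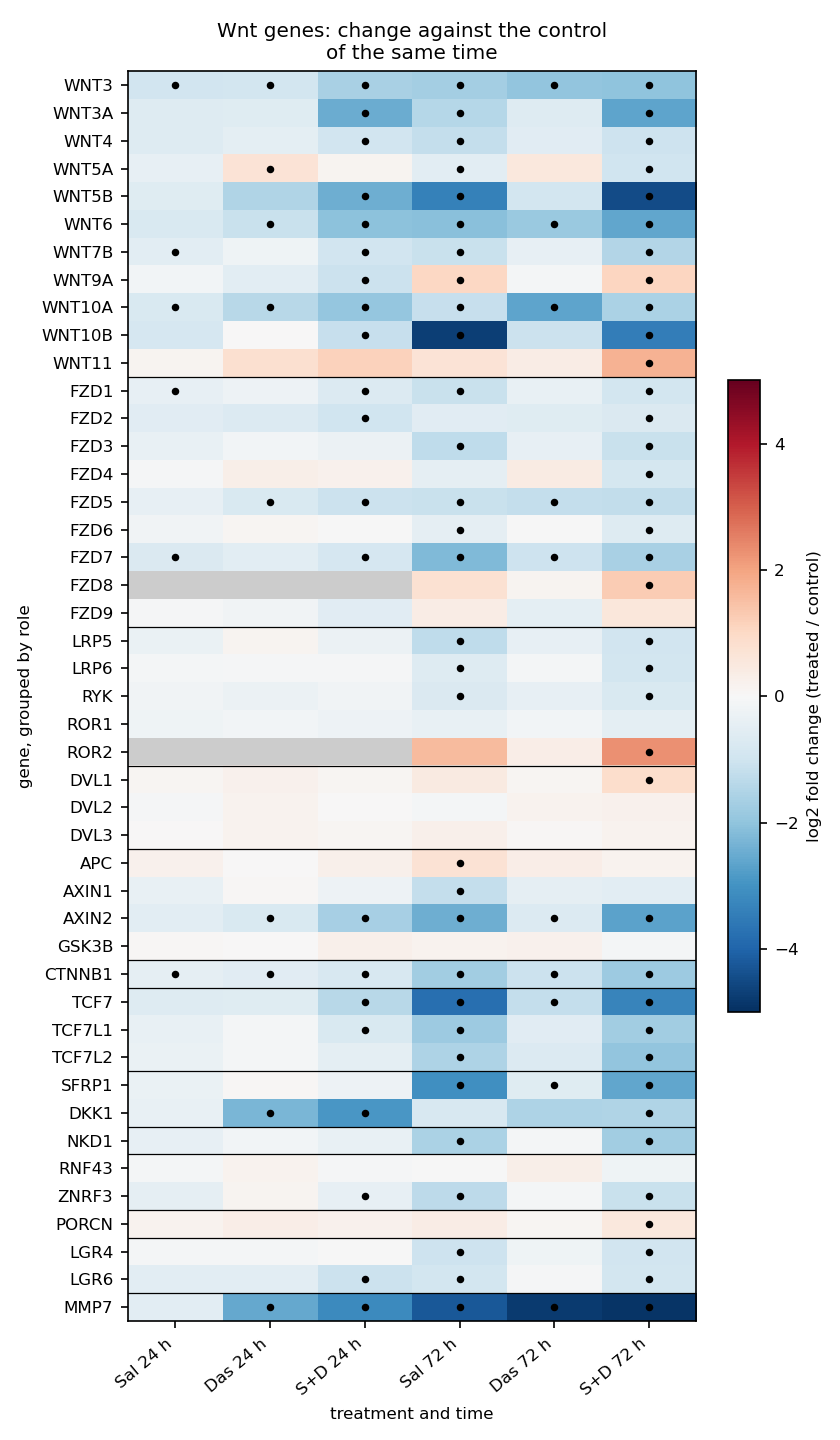
Log2 fold change (colour, from -5 to 5) of the 45 members tested in either time point against the control of the same time, by treatment and time (columns) and by role (blocks of rows). Dots mark an adjusted p under 0.01 and grey cells genes below the filter. FZD8 and ROR2, dotted with S + D at 72 h, reached the test through treated libraries. The 72 h columns of Sal and S + D are mostly blue, with MMP7, WNT10B, WNT5B and TCF7 darkest.

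Among the ligands, 9 of the 11 tested were lower and 1 higher with Sal at 72 h (26.8% and 26.3% of all genes). With Das 3 were lower (9.36%), and with S + D 9 were lower and 2 higher (27.9% and 27%). Their median log2 fold change was -1.18, -0.64 and -1.59. At 24 h with S + D 9 were lower and 0 higher (16.5% and 17.1% of all genes), with a median of -1.14. WNT6 (ENSG00000115596, chromosome 2, 219724528 to 219738955, GRCh37), a ligand of the epithelium that signals through beta-catenin, was the most abundant of them per length. Its libraries read 93.9, 99.4, 115 and 147 CPM in the 72 h control. The Sal libraries read 21.5, 22.4, 19.7 and 44.1 CPM, those of Das 24, 22.9, 31.8 and 46.2 and those of S + D 20.4, 15.7, 12.4 and 26.7. All treated libraries lay below all controls. The log2 fold change was -2.10 (standard error 0.29, adjusted p = 7.57e-06) for Sal. For Das it was -1.87 (standard error 0.29, adjusted p = 0.000142), and for S + D -2.61 (standard error 0.30, adjusted p = 7.99e-07). At 24 h WNT6 read 120, 134, 121 and 175 CPM in the control and 25.9, 32.7, 30.7 and 41.3 with S + D (-2.04, standard error 0.21, adjusted p = 1.19e-06), again without overlap.

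WNT10A (ENSG00000135925, chromosome 2, 219745574 to 219764303), which lies next to WNT6 and is a ligand of skin and tooth development, had its largest log2 change at 72 h with Das alone, though Das and Sal were not tested against each other. It read 23.7, 23.1, 27.2 and 34.9 CPM in the 72 h control. The Sal libraries read 10.9, 10.4, 10.9 and 17.6 CPM, those of Das 4.32, 3.89, 2.92 and 6.44 and those of S + D 10, 8.51, 7.69 and 10.5. In log2 terms Sal gave -1.15 (standard error 0.22, adjusted p = 0.00022), Das -2.63 (standard error 0.24, adjusted p = 6.36e-07) and S + D -1.59 (standard error 0.23, adjusted p = 8.85e-06). S + D left more WNT10A than Das did (1.05, standard error 0.23, adjusted p = 0.00131 for S + D against Das). At 24 h it read 28.9, 32.5, 31.5 and 44.6 CPM in the control and 7.29, 8.18, 8.92 and 10.7 with S + D (-1.94, standard error 0.17, adjusted p = 2.58e-07).

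WNT10B (ENSG00000169884, chromosome 12, 49359123 to 49365518), a mammary ligand of the beta-catenin branch, had the largest fall of any ligand with Sal at 72 h. Its libraries read 2.38, 2.51, 2.58 and 2.67 CPM in the control. Sal gave 0.07, 0.0996, 0.0354 and 0.152 CPM (2, 3, 1 and 6 counts) and S + D 0.192, 0.131, 0.268 and 0.337 (6, 5, 9 and 12 counts). The log2 fold changes of -4.72 (standard error 0.50, adjusted p = 4.33e-07) and -3.45 (standard error 0.43, adjusted p = 2.4e-06) therefore rest on few treated counts, though no treated library came near a control. With Das the 4 libraries read 0.373, 0.822, 1.86 and 1.76 CPM, below the controls but widely spread, without a call (-1.06, standard error 0.37, adjusted p = 0.0329).

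WNT5B (ENSG00000111186, chromosome 12, 1639057 to 1756378), a ligand related to WNT5A, read 1.44, 1.98, 1.53 and 0.996 CPM in the 72 h control. With Sal it was 0.105, 0.133, 0.142 and 0.178 CPM, and with S + D 0.064, 0.105, 0.0596 and 0.0281. These S + D values stand on 2, 4, 2 and 1 counts, and those with Sal on 3, 4, 4 and 7. The fit gave -3.38 (standard error 0.43, adjusted p = 3.2e-06) for Sal and -4.46 (standard error 0.48, adjusted p = 4.33e-07) for S + D, and neither group overlapped the controls. At 24 h WNT5B read 1.21, 0.96, 0.878 and 0.729 CPM in the control and 0.181, 0.16, 0.299 and 0.0293 with S + D (-2.44, standard error 0.51, adjusted p = 0.00105).

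WNT3 and WNT3A, classical activators of beta-catenin, also fell. WNT3 (ENSG00000108379, chromosome 17, 44839872 to 44910520) read 3.11, 2.83, 3.22 and 3.15 CPM in the 72 h control. The Sal libraries read 0.84, 0.697, 0.744 and 1.52 CPM, those of Das 0.435, 0.679, 0.963 and 1 and those of S + D 0.608, 0.576, 1.01 and 0.87. Its log2 fold change was -1.69 (standard error 0.29, adjusted p = 6.42e-05) for Sal, -1.99 (standard error 0.29, adjusted p = 9.51e-05) for Das and -2.02 (standard error 0.29, adjusted p = 1.14e-05) for S + D. No treated library of WNT3 reached a control. The 24 h values of WNT3 were 3.06, 3.34, 3.45 and 3.57 CPM in the control and 1.21, 1.02, 1.29 and 0.732 with S + D (-1.62, standard error 0.22, adjusted p = 1.72e-05). WNT3A (ENSG00000154342, chromosome 1, 228194699 to 228248972) read 4.27, 3.18, 4.26 and 4.39 CPM in the 24 h control and 0.723, 0.575, 0.868 and 0.615 with S + D (-2.49, standard error 0.20, adjusted p = 1.02e-07), beside -2.44 for WNT5B. At 72 h it read 3.88, 3.31, 4.09 and 3.96 CPM in the control and 2.03, 0.996, 1.13 and 1.57 with Sal (-1.42). Das read 1.83, 1.5, 3.92 and 2.57 CPM (-0.64, not called) and S + D 0.8, 0.812, 0.566 and 0.281 (-2.64, standard error 0.34, adjusted p = 3.14e-06). Of the Das libraries of WNT3A only replicate 3 reached the controls, and no S + D library did. That replicate was also the highest Das library of 72 h for WNT5B, AXIN2, TCF7 and CTNNB1, though not for WNT6 or WNT10A. Without it Das at 72 h called 14 members, against 10 with all libraries.

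Of the other ligands, WNT7B and WNT4, mammary ligands, fell to a smaller extent, with -1.11 and -1.18 on the log2 scale with Sal at 72 h and -1.46 and -1.04 with S + D. Against this trend, WNT9A, WNT11 and WNT5A rose in some conditions. WNT9A (ENSG00000143816, chromosome 1, 228106357 to 228135633) turned with time. It fell with S + D at 24 h, from 6.38, 6.11, 7.49 and 9.17 CPM in the control to 2.56, 3.03, 3.29 and 4.51 (-1.09, standard error 0.19, adjusted p = 0.000194). At 72 h it rose with Sal and with S + D, from 3.05, 4.26, 4.56 and 5.49 CPM to 8.61, 6.74, 7.26 and 13.2 (1.03, standard error 0.22, adjusted p = 0.000645) and to 8.45, 8.53, 8.53 and 11.9 (1.09, standard error 0.22, adjusted p = 0.00037). The difference between the S + D responses at the 2 times was itself called (2.23, standard error 0.30, adjusted p = 4.21e-06), and no treated library overlapped its controls in these comparisons.

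WNT5A (ENSG00000114251, chromosome 3, 55499743 to 55524567), a ligand that mostly signals without beta-catenin, was higher with Das at 24 h and lower with Sal and with S + D at 72 h. At 24 h it read 17.8, 16.8, 17.2 and 18.7 CPM in the control and 27, 27.3, 32.2 and 24.4 with Das (0.67, standard error 0.13, adjusted p = 0.00127). At 72 h the control read 19, 18.2, 16.9 and 24 CPM and Das 27.1, 28.1, 30.5 and 26 (0.51, standard error 0.15, adjusted p = 0.0124, not called). Sal read 10.8, 12.4, 16.1 and 16.3 CPM (-0.51, standard error 0.15, adjusted p = 0.00577) and S + D 9.51, 9.21, 10.3 and 10.9 (-0.99, standard error 0.15, adjusted p = 1.59e-05). All Das libraries lay above all controls, and from the numbered libraries the rise with Das at 72 h was called (0.66). The call of WNT5A with Sal at 72 h was lost in 5 of 8 refits, those without control replicate 1 or 2, the unnumbered control, or Sal replicate 1 or 2 (log2 fold change between -0.59 and -0.40). WNT11 (ENSG00000085741, chromosome 11, 75897369 to 75921780), a ligand of cell movements in development with 8.6% of its exon bases shared with another gene, rose with S + D at 72 h. It read 0.234, 0.555, 0.361 and 0.323 CPM in the control and 1.47, 1.1, 1.28 and 1.15 with S + D (1.72, standard error 0.34, adjusted p = 0.000278), without overlap.

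**Figure D3:**
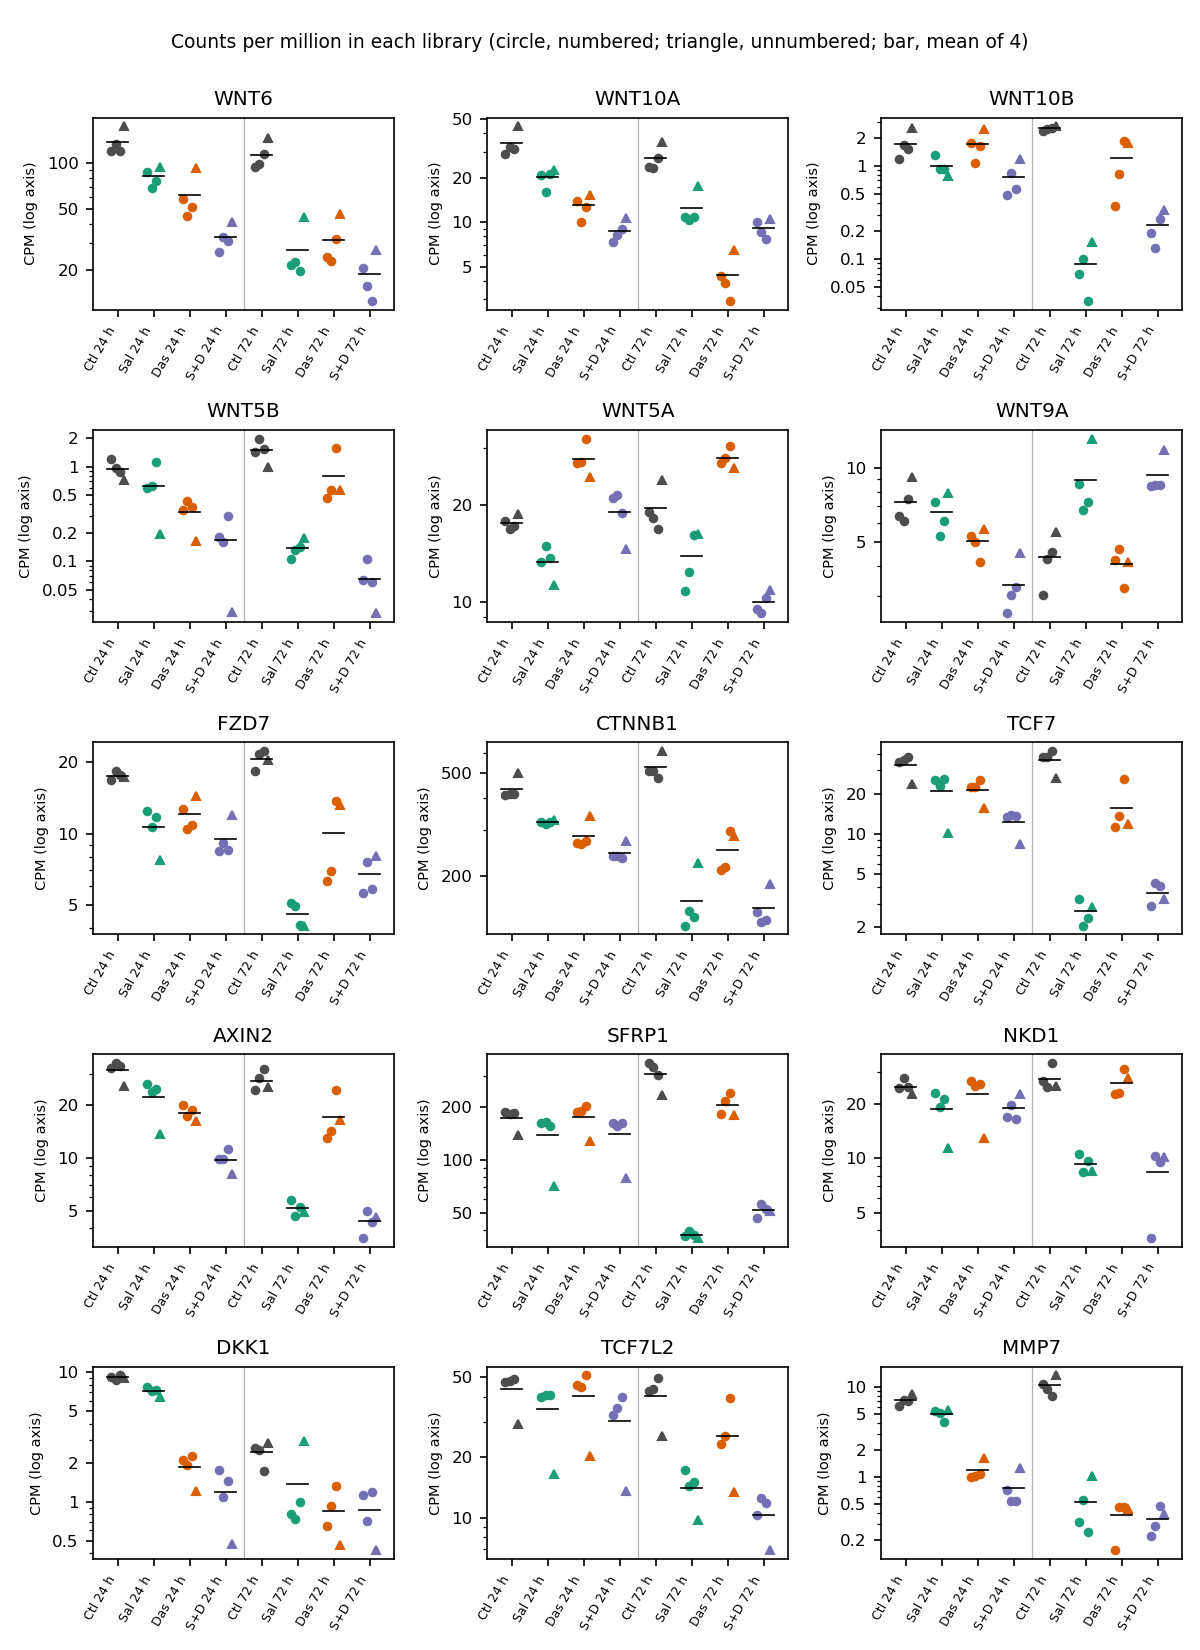
CPM on a log axis of 15 members in each of the 32 libraries, by group, with 24 h to the left and 72 h to the right of the grey line. Circles are numbered and triangles unnumbered libraries, and bars are means of 4. SFRP1 stays between 36 and 39.5 CPM in all Sal libraries of 72 h, WNT5A is highest with Das, and the Das libraries of TCF7 at 72 h run from 11.3 to 25.7 CPM.

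Of the 9 Frizzled receptors, the seven-pass receptors that bind Wnt ligands, 5 were lower with Sal at 72 h (26.8% of all genes). With Das 2 of the receptors were lower (9.36%), and with S + D 7 were lower and 1 higher (27.9% and 27%). FZD7 (ENSG00000155760, chromosome 2, 202898578 to 202903164), a receptor of stem cells in several epithelia, had the largest log2 change of them with Sal and with S + D. It read 18.4, 21.8, 22.4 and 20.4 CPM in the 72 h control, 5.11, 4.95, 4.11 and 4.09 with Sal (-2.20, standard error 0.23, adjusted p = 4.33e-07) and 5.6, 7.59, 5.87 and 8.03 with S + D (-1.63, standard error 0.23, adjusted p = 7.04e-06), with no overlap. With Das the libraries of FZD7 formed an upper and a lower pair, at 6.34, 6.93, 13.7 and 13.2 CPM (-1.05, standard error 0.22, adjusted p = 0.00178). FZD5 fell in all treatments at 72 h, with -1.10 (standard error 0.13, adjusted p = 1.69e-06) for Sal on the log2 scale. Das gave -1.20 (standard error 0.13, adjusted p = 6.01e-06) and S + D -1.22 (standard error 0.13, adjusted p = 5.31e-07). FZD4, which shares 18.9% of its exon bases with another gene, was called lower with S + D (-0.89, standard error 0.16, adjusted p = 0.000106), at 11.6, 15.2, 16 and 22.3 CPM against 30.1, 31, 29.2 and 28.9 in the control. In the Das libraries FZD4 read 35, 36.4, 44.4 and 44.5 CPM, all above the controls, without a call (0.42, standard error 0.16, adjusted p = 0.0469). FZD1 and FZD3 fell by 1.10 and 1.26 on the log2 scale with Sal, FZD6 by 0.43, and FZD2 by 0.74 with S + D, while FZD9 was called in no comparison with control. The call of FZD6 with Sal was kept without the unnumbered control only, and that of FZD2 with S + D without control replicate 1 or 2 or S + D replicate 1 only, over 8 refits each (log2 fold changes between -0.48 and -0.38 and between -0.83 and -0.65). The 1 Frizzled gene called higher with S + D was FZD8, at 21, 19, 17 and 11 counts against 8, 7, 4 and 9 in the control. It reached the test at 72 h through treated libraries, so no test is given for it.

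The co-receptors of the beta-catenin branch fell together with these receptors at 72 h. LRP5 fell by 1.27 on the log2 scale with Sal and by 0.97 with S + D, and LRP6 by 0.66 and 0.90. RYK, a receptor for ligands that act without beta-catenin, fell by 0.74 and 0.75, and ROR1 was not called (-0.36 and -0.47). None of the 4 was called with Das or at 24 h. ROR2, a receptor of WNT5A, was near the detection limit, at 0, 3, 2 and 9 counts in the 72 h control and 8, 18, 22 and 21 with S + D. It passed the filter only through those S + D libraries, so no test is given for it either.

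Intracellular components moved less uniformly. Of the Dishevelled proteins, which relay the receptor signal, DVL1 rose with S + D at 72 h (0.89, standard error 0.17, adjusted p = 0.000207), and DVL2 and DVL3 were called in none of the 6 comparisons, with log2 fold changes between -0.11 and 0.26. In the destruction complex, GSK3B, the kinase that marks beta-catenin, was called in no comparison (-0.09 to 0.27). APC, its scaffold, rose with Sal at 72 h (0.73, standard error 0.20, adjusted p = 0.0044), a call lost without control replicate 3, the unnumbered control, or Sal replicate 2 or 3 (0.64 to 0.85 over 8 refits). AXIN1, the limiting scaffold, fell with Sal (-1.20, standard error 0.18, adjusted p = 1.87e-05) and was not called with S + D (-0.53, standard error 0.18, adjusted p = 0.0158).

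AXIN2 (ENSG00000168646, chromosome 17, 63524681 to 63557766), the inducible scaffold and a common readout of beta-catenin signalling, had the largest log2 changes of the complex. Of its exon bases 25.3% are shared with another annotated gene, and whether the counting used strand is not given in the sources used here. It read 24.3, 28.5, 32.2 and 25.2 CPM in the 72 h control. The Sal libraries read 5.78, 4.68, 5.21 and 4.9 CPM, those of Das 12.9, 14.3, 24.5 and 16.4 and those of S + D 3.49, 4.95, 4.32 and 4.6. The log2 fold change was -2.44 (standard error 0.19, adjusted p = 2.77e-08) for Sal and -2.68 (standard error 0.19, adjusted p = 8.25e-09) for S + D, and their libraries lay far below the controls. With Das it was -0.70 (standard error 0.18, adjusted p = 0.00642), with 1 library among the controls, and the call was lost in the numbered libraries (-0.72) and in 5 of 8 refits, those without control replicate 2 or 3, Das replicate 1 or 2 or the unnumbered Das library (-0.91 to -0.57). At 24 h AXIN2 read 32.4, 34.7, 33.5 and 25.7 CPM in the control and 9.82, 9.8, 11.2 and 8.11 with S + D (-1.66, standard error 0.18, adjusted p = 2.3e-06), again without overlap.

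Beta-catenin (CTNNB1, ENSG00000168036, chromosome 3, 41236232 to 41301587), the effector of the pathway and a part of adherens junctions, was lower in all 6 comparisons. It read 509, 508, 481 and 611 CPM in the 72 h control. With Sal it was 128, 146, 138 and 225 CPM, and with S + D 145, 132, 135 and 186. In log2 terms the change was -1.74 (standard error 0.18, adjusted p = 3.33e-07) for Sal and -1.83 (standard error 0.18, adjusted p = 1.7e-07) for S + D. Das gave -1.07 (standard error 0.18, adjusted p = 0.00024), and no treated library overlapped the controls. The 24 h log2 fold changes were smaller, at -0.44 (Sal), -0.58 (Das) and -0.79 (S + D).

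The 3 TCF factors tested, which bring beta-catenin to DNA, were all lower with Sal and with S + D at 72 h. TCF7 (ENSG00000081059, chromosome 5, 133450372 to 133487556), itself a target of the pathway, fell most, from 37.5, 37.8, 42 and 26.2 CPM in the control to 3.29, 2.06, 2.37 and 2.82 with Sal (-3.78, standard error 0.27, adjusted p = 1.2e-08) and 2.91, 4.27, 4.08 and 3.25 with S + D (-3.32, standard error 0.26, adjusted p = 2.02e-08). With Das it read 11.3, 13.6, 25.7 and 11.9 CPM (-1.21, standard error 0.24, adjusted p = 0.00103), where replicate 3 lay close to the lowest control. TCF7L1 (ENSG00000152284, chromosome 2, 85360515 to 85537510), mostly a repressor, read 102, 107, 131 and 59.2 CPM in the control. Sal gave 35.9, 26.3, 25.2 and 27.1 CPM (-1.82, standard error 0.24, adjusted p = 3.55e-06) and S + D 32, 34.4, 33.7 and 20.8 (-1.74, standard error 0.23, adjusted p = 5.09e-06). TCF7L2 (ENSG00000148737, chromosome 10, 114710006 to 114927437), the main TCF of epithelial cells, read 42.6, 43.7, 49.4 and 25.4 CPM in the control. Sal gave 17.2, 14.4, 15.1 and 9.78 CPM (-1.53, standard error 0.28, adjusted p = 0.00014) and S + D 10.3, 12.5, 11.8 and 6.9 (-1.97, standard error 0.29, adjusted p = 1.17e-05). For all 3 factors every Sal and S + D library was below every control, and the unnumbered library was the lowest of the 72 h controls.

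The secreted inhibitors SFRP1, which binds Wnt ligands, and DKK1, which binds LRP5 and LRP6, were both lower with S + D at 72 h. SFRP1 (ENSG00000104332, chromosome 8, 41119481 to 41166992) was not called at 24 h in any treatment. At 72 h it read 353, 337, 302 and 234 CPM in the control. Sal gave 37, 39.5, 37.3 and 36 CPM and S + D 47, 55.9, 52.9 and 51.3, with log2 fold changes of -3.05 (standard error 0.14, adjusted p = 1.55e-10) and -2.58 (standard error 0.13, adjusted p = 2.39e-10). With Das SFRP1 read 181, 216, 239 and 180 CPM (-0.60, standard error 0.13, adjusted p = 0.00178), overlapping the unnumbered control, a call lost without control replicate 2 or Das replicate 1 (-0.71 to -0.52 over 8 refits). DKK1 (ENSG00000107984, chromosome 10, 54074041 to 54077802), with 10.2% of its exon bases shared with another gene, changed early and with Das. It read 9.23, 8.75, 9.41 and 8.93 CPM in the 24 h control. The Sal libraries read 7.63, 7.14, 7.26 and 6.39 CPM, those of Das 2.11, 1.91, 2.23 and 1.2 and those of S + D 1.75, 1.09, 1.44 and 0.469. The 24 h log2 fold change was -2.27 (standard error 0.26, adjusted p = 1.52e-05) for Das and -2.90 (standard error 0.28, adjusted p = 5.47e-07) for S + D. Sal gave -0.36 (standard error 0.24, adjusted p = 0.373). DKK1 also fell with time in the controls, to 2.61, 2.49, 1.72 and 2.85 CPM at 72 h (-1.91, standard error 0.35, adjusted p = 0.00104), where S + D read 1.12, 0.707, 1.19 and 0.421 CPM (-1.51, standard error 0.43, adjusted p = 0.00515). The last call was lost in 5 of 8 refits, those without control replicate 1 or 2, S + D replicate 2 or either unnumbered library (-1.71 to -1.24). The Das libraries of DKK1 at 72 h read 0.653, 0.929, 1.31 and 0.465 CPM, also all below the controls, without a call. Those of Sal read 0.805, 0.73, 0.992 and 2.92 CPM, again without a call.

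NKD1 (ENSG00000140807, chromosome 16, 50582307 to 50683160), an inhibitor that binds Dishevelled and a feedback target, was lower with Sal and with S + D at 72 h and was not called with Das. It read 26.7, 24.8, 33.5 and 25.2 CPM in the 72 h control and 10.5, 8.4, 9.63 and 8.48 with Sal (-1.59, standard error 0.24, adjusted p = 1.77e-05). The values were 22.6, 22.9, 30.9 and 27.8 CPM with Das (-0.09, standard error 0.23, adjusted p = 0.796) and 3.62, 10.3, 9.54 and 10.2 with S + D (-1.73, standard error 0.24, adjusted p = 7.31e-06). Sal and S + D libraries lay below all controls, and Das libraries among them. ZNRF3, a ubiquitin ligase that removes Frizzled receptors from the surface, was likewise called with Sal and S + D and not with Das at 72 h, with -1.32 (standard error 0.15, adjusted p = 1.1e-06) for Sal, -0.08 for Das and -1.10 (standard error 0.15, adjusted p = 6.44e-06) for S + D. RNF43, its partner, was called in none of the 6 comparisons (-0.20 to 0.31), with 69% of its exon bases shared with other genes. LGR4 and LGR6, receptors of the R-spondins that restrain these ligases, fell by 1.05 and 0.93 with Sal and by 0.95 and 0.91 with S + D. PORCN, the acyltransferase that lipidates Wnt ligands, rose with S + D at 72 h (0.52, standard error 0.14, adjusted p = 0.00451), a call held in 2 of 8 refits, those without either unnumbered library.

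MMP7 (ENSG00000137673, chromosome 11, 102391239 to 102401481, GRCh37), a matrix metalloproteinase and a known target of beta-catenin and of AP-1 factors, had the largest fall of the tested members in both Das and S + D at both times. It read 6.14, 7.1, 6.99 and 8.39 CPM in the 24 h control. The Sal libraries read 5.36, 5.09, 4.05 and 5.52 CPM, those of Das 1.01, 1.02, 1.09 and 1.65 and those of S + D 0.723, 0.543, 0.539 and 1.26. In log2 terms Das gave -2.55 (standard error 0.24, adjusted p = 1.69e-06), S + D -3.18 (standard error 0.25, adjusted p = 7.39e-08) and Sal -0.53 (standard error 0.22, adjusted p = 0.121) at 24 h, where Sal alone was not called and all treated libraries lay below the controls. At 72 h it read 10.9, 9.55, 8 and 13.4 CPM in the control. The Sal libraries had dropped to 0.315, 0.564, 0.248 and 1.02 CPM, those of Das to 0.155, 0.464, 0.466 and 0.441 and those of S + D to 0.224, 0.288, 0.477 and 0.393. All 12 treated libraries of 72 h were at 1.02 CPM or less (5 to 40 counts). The log2 fold change was -4.25 (standard error 0.36, adjusted p = 6.13e-08) for Sal and -4.77 (standard error 0.38, adjusted p = 1.61e-07) for Das. For S + D it was -4.92 (standard error 0.38, adjusted p = 1.82e-08).

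The promoters of MMP7 and TCF7, feedback or target genes of the list that fell most and had an entry in the RefSeq promoter table (GRCh38.p14), are shown because TCF/LEF factors act at such sequences. Each is the 250 bases before the transcript start, 5′ to 3′ on the gene's strand, at chr11:102530748-102530997 (minus strand) for MMP7 and chr5:134115363-134115612 (plus strand) for TCF7. Capitals mark the TCF/LEF core CTTTGA or CTTTGT on either strand.
MMP7: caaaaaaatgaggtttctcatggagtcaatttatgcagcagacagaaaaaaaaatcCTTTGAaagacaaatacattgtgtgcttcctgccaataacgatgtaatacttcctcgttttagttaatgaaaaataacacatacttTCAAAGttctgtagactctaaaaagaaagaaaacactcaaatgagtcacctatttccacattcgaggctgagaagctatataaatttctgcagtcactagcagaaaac
TCF7: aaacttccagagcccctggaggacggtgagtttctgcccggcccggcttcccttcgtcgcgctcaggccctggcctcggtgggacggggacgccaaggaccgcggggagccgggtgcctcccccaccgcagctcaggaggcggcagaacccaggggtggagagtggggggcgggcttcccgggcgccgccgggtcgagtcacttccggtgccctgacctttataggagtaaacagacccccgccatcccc
The MMP7 promoter held the core CTTTGA 2 times, from -194 to -189 on the gene's strand and from -108 to -103 on the other, counted from the transcript start, and the TCF7 promoter held none. Of all 27305 promoters of this length that RefSeq's file gave, 22.9% held at least 1 core, as did 15.8% of the 38 members with an entry, among them DKK1, FZD1, RNF43, ROR2 and SP5. The TCF7 window was 70.8% G or C and that of MMP7 33.6%. A match is a run of letters and not a measured binding site.

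The rest of the pathway, a list of 92 further genes, was mixed. At 72 h Sal lowered 26.8% and raised 26.3% of all genes. Das lowered 9.36%, and S + D lowered 27.9% and raised 27%. Of 20 other known targets of beta-catenin tested, 13 were lower and 3 higher with Sal at 72 h (median log2 fold change -1.42). With Das 9 were lower (-0.63), and with S + D 14 were lower and 5 higher (-1.25). The fallers included the adhesion receptor CD44 (-3.20, standard error 0.19, adjusted p = 2.22e-09 with Sal), the transcription factors MYC (-2.86, standard error 0.19, adjusted p = 5.71e-09) and SOX4 (-2.36, standard error 0.12, adjusted p = 5.01e-10) and the cyclin CCND1 (-2.54, standard error 0.18, adjusted p = 1.14e-08 with Sal, -3.99 with S + D), and JUN, L1CAM and PPARD were the 3 higher. FOSL1, an AP-1 subunit, gave -4.68 (standard error 0.28, adjusted p = 4.05e-09) for Das and -1.46 for Sal, a difference that was not tested. Many of these genes answer to other pathways as well.

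Other membrane and secretory components split, with 6 lower and 3 higher of 9 tested with Sal at 72 h (26.8% and 26.3% of all genes). The numbers were the same with S + D (27.9% and 27%). APCDD1, a membrane inhibitor (-2.05 with Sal), KREMEN2, a DKK receptor with 15.3% of its exon bases shared (-2.79), the glypican GPC3 (-2.84) and the Wnt carrier WLS (-0.56) were lower, and TMEM67 (2.00) higher. The 3 higher with Sal include LRP4, which held 4 to 10 counts per library in the 72 h control. LRP4 reached the test through treated libraries, so no test is given for it. Other cytoplasmic and nuclear components were near balance, with 6 higher and 6 lower of 24 with Sal at 72 h (median -0.19), close to the 26.3% higher and 26.8% lower of all genes. The Groucho co-repressors TLE2 and TLE3 fell (-1.47 and -1.58), and the tankyrases TNKS and TNKS2, which promote AXIN turnover, rose (1.02 and 0.59). The 6 higher include DACT3, an antagonist at Dishevelled, which held 5 to 10 counts per library in the 72 h control. It reached the test through treated libraries, so no test is given for it. Of 13 genes of the planar polarity and calcium branch, 5 were lower and 2 higher with Sal at 72 h (26.8% and 26.3% of all genes). VANGL1 and VANGL2 were among the lower (-1.62 and -1.92) and CELSR3 among the higher (3.04). Of 20 other ligands, R-spondins and secreted modulators, WNT2B alone passed the filter, with 0.98 for S + D and 21.5% of its exon bases shared.

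To ask what the combination added to a single drug, S + D was set against each at 72 h. Against Das, 21 of the 45 members were lower and 4 higher with S + D, where 17.7% of all genes were lower and 14.3% higher, and the median was -0.54. The 3 numbered libraries gave 23 and 5 (19.8% and 16.8% of all genes), and without Das replicate 3 the total fell from 25 to 19. Large falls were those of WNT5B (-3.55, standard error 0.50, adjusted p = 2.58e-05) and WNT10B (-2.38, standard error 0.44, adjusted p = 0.000327). Others were TCF7 (-2.11, standard error 0.25, adjusted p = 5.74e-06), SFRP1 (-1.98, standard error 0.13, adjusted p = 1.73e-08) and AXIN2 (-1.98, standard error 0.19, adjusted p = 7.54e-07). WNT9A, WNT10A, WNT11 and DVL1 were the 4 higher, WNT11 not without Das replicate 2 or 3.

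Against Sal, no member was called with S + D by edgeR, where 1.42% of all genes were higher and 1.59% lower. At an unadjusted p under 0.05 there were 12 members, and DESeq2 called 2, WNT3A (-1.22) and AXIN1 (0.68). With a replicate block, or with a term for the unnumbered libraries, edgeR called 3, APC (-0.56), AXIN1 (0.68) and SFRP1 (0.47). In edgeR without such a term WNT3A and AXIN1 gave -1.22 (standard error 0.35, adjusted p = 0.037) and 0.68 (standard error 0.18, adjusted p = 0.0268). The median log2 difference of the members was -0.07, and it was 0.01 in the numbered libraries, which called none.

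The interaction term at 72 h, which is 0 where the log2 change with S + D equals the sum of those with each drug, was called for 8 members, 7 above 0 and 1 below. Of all genes, 3.43% were above and 4.09% below. For the 7 the combination fell less than the sum. MMP7 gave 4.10 (standard error 0.56, adjusted p = 0.00023), with a sum of -9.02 for the drugs alone against -4.92 with S + D. Each drug alone already left MMP7 at 5 to 40 counts per library, which left little room for the further fall that the sum asks for. WNT10A gave 2.19 (standard error 0.32, adjusted p = 0.000348), TCF7 1.67 (standard error 0.35, adjusted p = 0.0041) and FZD7 1.62 (standard error 0.32, adjusted p = 0.00271). The smaller terms were those of AXIN1 at 1.13 (standard error 0.25, adjusted p = 0.0061), FZD5 at 1.09 (standard error 0.19, adjusted p = 0.00117) and SFRP1 at 1.07 (standard error 0.18, adjusted p = 0.00102). WNT5A was the 1 below 0 (-0.99, standard error 0.21, adjusted p = 0.00411), with log2 changes of 0.51 for Das, -0.51 for Sal and -0.99 for S + D.

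**Figure D4:**
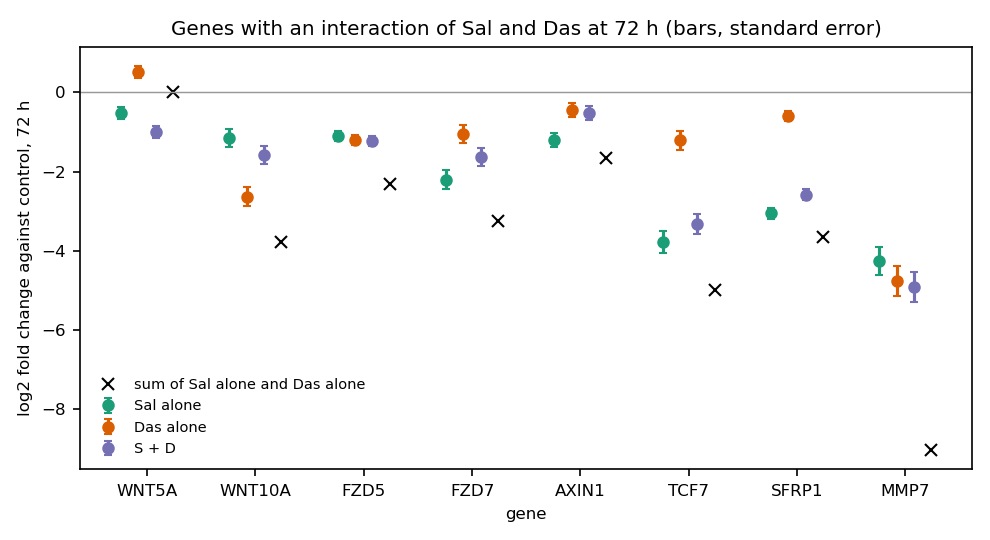
Log2 fold change against the 72 h control (points, with the standard error as bars) with Sal, Das and S + D for the 8 members with an interaction at an adjusted p under 0.01. Crosses show the sum of the changes with Sal alone and Das alone: for WNT5A the sum is 0 and S + D lies below it at -0.99, and for the other 7 genes S + D lies above the cross.

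The numbered libraries called 11 members above and 3 below 0 (6.62% and 6.24% of all genes), with MMP7 at 4.52 and WNT10A at 2.44. Over the 16 refits that left out 1 library the number called ran from 5, without control replicate 3, Sal replicate 3 or S + D replicate 2, to 13, without the unnumbered Das library. The calls of MMP7, WNT10A, FZD5, FZD7 and SFRP1 were kept in all 16. That of TCF7 was lost in 5, without control replicate 3, Sal replicate 2 or 3, Das replicate 2 or S + D replicate 2, and that of WNT5A in 5, without control replicate 1, 2 or 3, Sal replicate 3 or S + D replicate 2. The AXIN1 call was lost in 11 of the 16 (1.01 to 1.33).

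Whether a response changed with time was tested as the 72 h response minus the 24 h response. For Sal, 17 of 45 members had a lower and 1 a higher response at 72 h (13.7% and 8.21% of all genes), with a median difference of -0.57. For S + D 9 were lower and 1 higher (10.1% and 6.15%; median -0.34), WNT9A being the higher one in both. For Das no member was called by edgeR (0.174% of all genes lower and 0.0522% higher), with 9 at an unadjusted p under 0.05 and 2 called by DESeq2, MMP7 (-2.21) and WNT10A (-1.24). With a replicate block edgeR called the same pair, WNT10A at -1.26 and MMP7 at -2.20, as it did with a term for the unnumbered libraries (-1.26 and -2.19). With DESeq2's size factors or no filter it called MMP7 (-2.20). With the numbered libraries the lower and higher members were 26 and 2 for Sal, where 22.4% and 16.9% of all genes were called. They were 18 and 4 for S + D (17.9% and 13.7%) and 4 and 0 for Das (2.75% and 0.816%). In the controls themselves, 2 members were lower at 72 h than at 24 h and 0 higher (0.76% and 2% of all genes), DKK1 and the R-spondin receptor LGR6 (-0.87, standard error 0.18, adjusted p = 0.00275). The LGR6 call was lost without any numbered control library of 24 h and without replicate 1 or 2 of 72 h (-0.94 to -0.81 over 8 refits).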

How the data were processed

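RNA of MDA-MB-468 cells (8 groups of 4 libraries) was sequenced by the authors. The deposited values are whole-number counts per Ensembl gene, not normalised. The submitters' processing notes name bcl2fastq 2.19, STAR 2.5.2, Cufflinks 2.1.1, DESeq2 and GRCh37, and the counting program and its use of strand are not given in the sources used here. Symbols, coordinates and exon lengths came from GENCODE 44 on GRCh37, and 46537 of 48804 identifiers matched a symbol.

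In each condition 3 libraries carry a replicate number, and 1 has none in its label; the remaining count column of each condition bears the condition's letter with a number that no label has, was assigned by group and is called unnumbered. Counts were filtered (filterByExpr, minimum count 10), scaled by TMM and tested with edgeR 4.0.16 (R 4.3.3) by the quasi-likelihood test, with the 16 libraries of a time point in 1 fit and all 32 for comparisons over time. Benjamini-Hochberg adjustment ran over all genes tested (16357 at 24 h, 16682 at 72 h, 17227 over both), and an adjusted p under 0.01 was called; the study also required a log2 change of 1.5, which is an alternative here. Others were DESeq2 1.42.0 with its size factors, no filter, the groups compared alone, a replicate block, a term for the unnumbered libraries, the numbered libraries alone and each library left out.

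On simulated counts for Sal against control at 72 h (15718 genes), edgeR recovered 97% of 100 genes changed by a log2 of 1 and 100% of those changed by 2.5, with 2 false calls. The simulation changed only genes with ample control counts, gave every gene the same dispersion and gave the unnumbered libraries no shared deviation. Its figures therefore do not carry over to members with few counts or to that deviation. Total counts were 25692561 to 42769687 per library, and exact tests of members below the filter are not reported.

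The members and lists were chosen with earlier results of these data known. Described library by library are the 17 members that averaged 1 CPM or more in some group and had, in 1 of the 6 comparisons with control or more, an adjusted p under 0.01 and a log2 change beyond 1.5 in size; WNT5A, WNT9A, FZD4, FZD8 and ROR2 were added after their values were seen. Promoters shown are those of feedback or target members under the same rule. Promoter sequences are RefSeq's on GRCh38.p14, and 38 of the 53 members had one.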

Additional observations from a re-analysis of the deposited data

Results flagged for a closer look

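In 5 of 69 groups of 4 libraries tested, 1 library stood apart from the other 3 by Dixon's criterion, which chance meets in about 1 of 20 groups. WNT3A was lowest in replicate 2 of the 24 h control, at 3.18 CPM. WNT6 was highest in the unnumbered library of Sal at 72 h, at 44.1 CPM, and MMP7 in the unnumbered library of Das at 24 h, at 1.65 CPM. NKD1 was lowest in replicate 1 of S + D at 72 h, at 3.62 CPM, and MMP7 in replicate 1 of Das at 72 h, at 0.155 CPM.

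The response to a drug differed between 24 and 72 h for 28 pairs of member and treatment, by the edgeR test of the difference itself (72 h response minus 24 h response, log2, adjusted p under 0.01). For Sal, the difference was -3.88 for WNT10B, -2.78 for WNT5B, -1.33 for WNT6 and 1.18 for WNT9A among the ligands. It was -0.67 for FZD1, -0.69 for FZD5, -1.47 for FZD7 and -0.94 for LRP5 among the receptors. Inside the cell it was -0.80 for AXIN1, -1.91 for AXIN2, -1.30 for CTNNB1, -3.12 for TCF7 and -1.43 for TCF7L1. Of the inhibitors, ligases and targets, SFRP1 gave -2.71, NKD1 -1.16, ZNRF3 -0.85, LGR4 -0.95 and MMP7 -3.71. Of these 18 calls, over 16 refits that each left out 1 library, LGR4 lost its call in 14, NKD1 in 13, WNT6 and AXIN1 in 9 each and FZD1 in 3, and the others kept theirs in all 16.

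For S + D the difference was -1.08 for WNT5A, 2.23 for WNT9A, -2.26 for WNT10B, -1.04 for FZD4, -0.97 for AXIN2 and -0.99 for CTNNB1. It was -1.88 for TCF7, -2.26 for SFRP1, -1.31 for NKD1 and -1.69 for MMP7. Of these 10 calls MMP7 lost its own in 7 of 16 refits, AXIN2 in 6 and NKD1 in 1, and the others kept theirs. WNT10B fell to few counts per library with Sal or S + D at 72 h, where it held 1 to 12 counts.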

How the results depend on the processing

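No log2 fold change of a called member changed sign under any alternative, and 139 of the 177 calls of members held in every refit that left out 1 library. The number of members called moved by more than 1.5 times as follows, against 6 for Sal, 9 for Das and 21 for S + D at 24 h, 31, 10 and 37 at 72 h, 0 for S + D against Sal, 25 against Das, 8 for the interaction, 2 for control time, and 18, 0 and 10 for the change of the Sal, Das and S + D response with time. Correlations between the deviations of same-numbered libraries ran from -0.43 to 0.26, and between differently numbered ones from -0.34 to 0.55. The numbers thus gave no sign of pairing, though deviations from means of 3 libraries cannot exclude a weak one. With a replicate block the counts were 19 for Sal and 17 for Das at 24 h, 18 for Das at 72 h, 3 for S + D against Sal, 14 for the interaction, 4 for control time, and 2 and 20 for the Das and S + D responses. A term for the unnumbered libraries gave 22, 18, 19, 3, 14, 6, 2 and 22 for the same comparisons. The numbered libraries alone gave 19 for Sal, 20 for Das and 33 for S + D at 24 h, 14 for the interaction, 5 for control time, and 28, 4 and 22 for the responses. DESeq2 gave 12 for Sal and 14 for Das at 24 h, 2 for S + D against Sal, 13 for the interaction, 4 for control time and 2 for the Das response. The groups compared alone gave 0 for Sal at 24 h, 4 for control time and 17 for the S + D response. DESeq2's size factors within edgeR and no filter gave 1 each for the Das response. With a log2 change of 1.5 also required, the counts were 0, 2 and 8 at 24 h, 13, 4 and 18 at 72 h, 7 against Das, 4 for the interaction, 1 for control time, and 6 and 5 for the Sal and S + D responses. Ranges over the refits that left out 1 library are given for every comparison, whether or not they moved that far. They were 1 to 4, 7 to 9 and 18 to 20 at 24 h and 28 to 32, 8 to 14 and 33 to 35 at 72 h. They were 0 against Sal, 19 to 26 against Das, 5 to 13 for the interaction and 1 to 3 for control time. For the responses they were 13 to 20, 0 to 2 and 8 to 13. The cause of these differences was not tested beyond the number of libraries that each setting leaves. Depth limits WNT5B, WNT10B, FZD8 and ROR2 with Sal or S + D at 72 h, and MMP7 with Das or S + D, all under 25 counts in those libraries.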
